A study of Mus musculus with 16 samples.

Results

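Runx2 and 5 osteoblast genes, Spp1, Alpl, Tnfrsf11b, Wnt10b and Msx2, were described across 4 histone marks in mesenchymal stromal cells of the endosteum, which lines the inside of bone where it faces the marrow. The members were taken by name, with earlier results of these data known, and all 6 were found among the 3925 genes of the data. Chromatin immunoprecipitation followed by sequencing (ChIP-seq) compared C57BL/6J mice with floxed Bap1 alleles and no recombinase named (Bap1fl/fl, called WT) with Prx1-cre;Bap1fl/fl mice (called cKO), in which Cre deletes Bap1. Prx1-cre acts in the early mesenchyme of the limbs and its descendants, so it is not restricted to the endosteum or to osteoblasts. The labels used here give no age, sex or number of animals. Each of the 8 groups (4 marks, 2 genotypes) had 2 libraries, 16 in all, and nothing states whether the pair came from separate mice, so p-values reflect library-to-library spread that could be technical alone. The libraries titled H3K4me3 and those titled H3K27ac carry each other's antibody in the antibody field. They are named by title here, and under the other naming every H3K4me3 result would be one of H3K27ac and the reverse. The Bap1 locus was not analysed here.

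RUNX2 is the transcription factor that commits mesenchymal progenitors to the osteoblast fate, and it binds a short core hexamer, TGTGGT or its complement ACCACA, in many bone genes. MSX2 is a homeobox factor of limb and skull development, and WNT10B is a secreted Wnt ligand that favours bone over fat formation in marrow stroma. Alpl encodes the alkaline phosphatase that osteoblasts use to start mineralization, Spp1 the matrix protein osteopontin, and Tnfrsf11b osteoprotegerin, the decoy receptor that keeps RANKL from driving osteoclast formation. BAP1 removes ubiquitin from histone H2A (H2AK119ub1). That mark and trimethylated H3K27 (H3K27me3) are laid down by the Polycomb complexes and accompany repressed genes, whereas trimethylated H3K4 (H3K4me3) and acetylated H3K27 (H3K27ac) mark active promoters.

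The promoter sequences of Runx2, Spp1 and Wnt10b are shown because they carry the contrast in sequence among the members: RUNX hexamers with few CpG in the first pair, many CpG and no hexamer in Wnt10b. They run from 250 bases before to 50 bases after a RefSeq transcript start (GRCm38.p6), 5′ to 3′ on the gene's strand, and capitals mark each hexamer.
Runx2 (chr17:44814578-44814877, minus strand): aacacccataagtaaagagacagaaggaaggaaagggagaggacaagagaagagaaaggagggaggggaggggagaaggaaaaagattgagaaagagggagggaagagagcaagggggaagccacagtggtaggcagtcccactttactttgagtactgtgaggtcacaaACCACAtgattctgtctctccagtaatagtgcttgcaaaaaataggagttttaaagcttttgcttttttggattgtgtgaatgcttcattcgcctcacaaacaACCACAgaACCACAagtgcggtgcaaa
Spp1 (chr5:104434861-104435160, plus strand): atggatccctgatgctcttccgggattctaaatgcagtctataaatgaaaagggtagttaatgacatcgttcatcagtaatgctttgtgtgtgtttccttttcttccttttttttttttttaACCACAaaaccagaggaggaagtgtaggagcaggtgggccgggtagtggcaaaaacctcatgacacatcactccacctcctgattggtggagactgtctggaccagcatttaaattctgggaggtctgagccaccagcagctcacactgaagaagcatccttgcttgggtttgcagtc
Wnt10b (chr15:98778101-98778400, minus strand): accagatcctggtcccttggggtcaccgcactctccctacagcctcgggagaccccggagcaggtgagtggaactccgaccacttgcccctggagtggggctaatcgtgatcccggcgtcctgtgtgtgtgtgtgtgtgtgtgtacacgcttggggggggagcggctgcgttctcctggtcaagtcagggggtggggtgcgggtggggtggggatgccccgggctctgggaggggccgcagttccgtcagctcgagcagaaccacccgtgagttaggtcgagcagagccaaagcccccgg

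The letters TGTGGT and ACCACA were searched on both strands, each being the other's complement. The Runx2 promoter held 3 hexamers, with first bases at -80, +24 and +32 counted from the start as +1, and the Spp1 promoter held 1, at -128. Among all 32851 RefSeq promoters of this length, 16.8% held at least 1 and 0.183% held 3 or more. The promoters of Alpl, Wnt10b and Msx2 held none, and Tnfrsf11b has no entry in the promoter table. CpG dinucleotides numbered 2 in the Runx2 promoter and 3 in that of Spp1, against 26 in Alpl, 22 in Msx2, 18 in Wnt10b and a median of 7 over all promoters. These matches describe letters and not measured binding.

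The deposited data were read counts in 50 bp bins over 10 kb around each gene start. The bin sums of the libraries ran from 1283020 to 10101047, and since a read was counted in about 3 neighbouring bins, they stand for 429493 to 3371063 reads. A promoter here is the 4 kb around the window's centre, and its level is given as CPM, counts scaled to a library of 1000000. At the 6 members a library held 66 to 3610 promoter counts in H3K4me3 and 66 to 1407 in H3K27ac. It held 145 to 512 in H2AK119ub1 and 54 to 391 in H3K27me3, so the highest counts were lower in the 2 Polycomb marks. Their standard errors of the log2 change were wider than in H3K4me3 at each member but Alpl. There the error was 0.32 in H3K4me3, 0.27 in H3K27me3 and 0.23 in H2AK119ub1. All 6 members passed the filter on low counts in all 4 marks. Each carries the authors' mark DOWN, as do 2021 of the 3925 genes, and the other 1904 carry the mark UP. The labels used here do not say which contrast set these marks. No gene of the data is without a mark. All promoters, windows or genes, where counted or ranked below, are therefore those of this marked set and not of the genome.

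H3K4me3 fell in cKO at all 6 promoters and H3K27ac at 5 of 6, all but Alpl. H3K27me3 rose at Spp1, Wnt10b and Msx2. H2AK119ub1, the mark that BAP1 removes, rose at none of the 6 and fell at Alpl. Levels were scaled to each library's own sum, so a shift shared by every window cannot be seen. Whether H2AK119ub1 changed as a whole in cKO was therefore not tested. The calls are edgeR quasi-likelihood tests across all promoters with a Benjamini-Hochberg (BH) adjusted p at or under 0.05, and "rose" and "fell" are used for these alone. In H3K4me3, 31.8% of all 3905 tested promoters fell and 40.5% rose, and 58.2% of those marked DOWN fell. In H3K27ac, 29.1% of 3892 fell and 30.9% rose, and 53.1% of those marked DOWN fell. In H3K27me3, 12.4% of 3883 rose and 15.6% fell, and 16.3% of those marked DOWN rose. In H2AK119ub1, 16.4% of 3889 fell and 16.7% rose, and 16.4% of those marked DOWN fell. The median log2 change of the members was -1.98 in H3K4me3 and -1.41 in H3K27ac, against 0.04 and 0.00 over all promoters and -0.38 and -0.50 over those marked DOWN. It was 0.54 in H3K27me3 and -0.04 in H2AK119ub1, against 0.03 and 0.02 over all promoters. The cells were measured in bulk, so fewer cells with a mark and less of the mark per cell cannot be told apart.

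**Figure D1:**
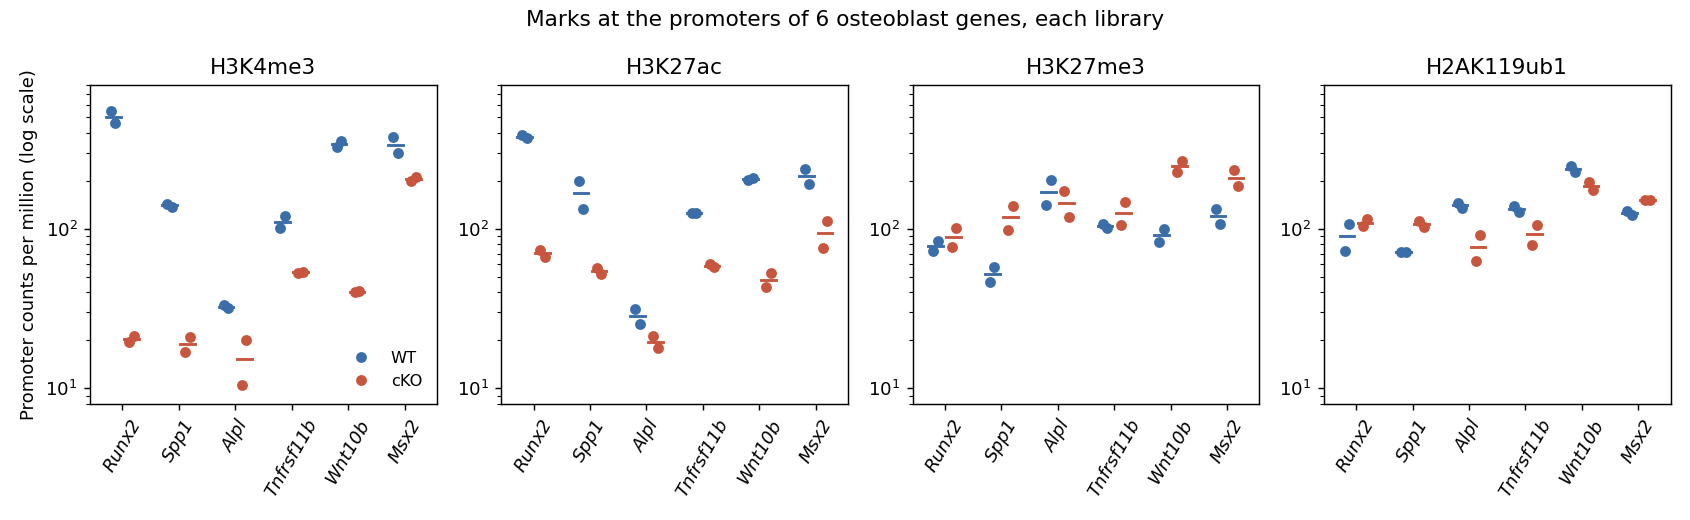
Promoter level of each mark at the 6 members, in CPM on a log axis. Points are single libraries, 2 for WT (blue) and 2 for cKO (red), and bars are their means. In H3K4me3 the 2 cKO libraries lie below both WT libraries at each member, from 549 and 459 to 19.5 and 21.4 at Runx2.

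**Figure D2:**
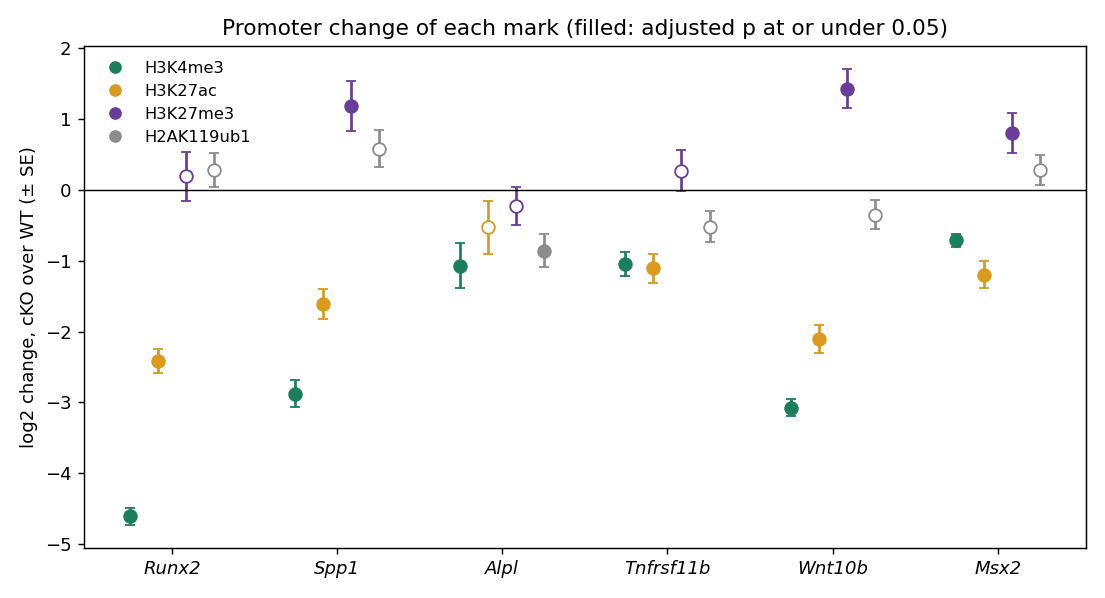
log2 change of the promoter level, cKO over WT, with its standard error from the edgeR fit. Filled points have a BH-adjusted p at or under 0.05. The green H3K4me3 points run from -4.61 at Runx2 to -0.71 at Msx2, while the purple H3K27me3 points of Wnt10b, Spp1 and Msx2 lie above 0.

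In WT cells the members differed widely in their active marks. H3K4me3 at Runx2 (mean 504 CPM) stood at the 94.4th percentile of all promoters, Wnt10b (341) and Msx2 (337) at percentiles 80.6 and 80, Spp1 (141) at 44.5, Tnfrsf11b (111) at 38.0 and Alpl (32.5) at 21.1. Wnt10b and Msx2 overlapped in their libraries and are neighbours that do not differ beyond their spread, while the libraries of the other neighbours in this order did not overlap. In cKO cells the order was Msx2 (206 CPM, percentile 52.5), Tnfrsf11b (53.6), Wnt10b (40.4), Runx2 (20.4, percentile 15.6), Spp1 (18.9) and Alpl (15.3). Runx2, Spp1 and Alpl overlapped in their cKO libraries, so that Runx2 had gone from the highest of the members to a level shared with the lowest.

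Runx2 (ENSMUSG00000039153, chromosome 17, minus strand, promoter window 44812227 to 44816226) lost nearly all of the H3K4me3 in this window. The gene beyond its 10 kb of bins was not measured. The WT libraries held 549 and 459 CPM and the cKO libraries 19.5 and 21.4. The groups lay far apart, with a mean 24.7-fold lower in cKO and a log2 change of -4.61 ± 0.12 (SE, edgeR adjusted p = 2.8e-294), the 4th lowest of 3905 promoters. H3K27ac was 386 and 370 CPM in WT and 73.8 and 67.0 in cKO, a log2 change of -2.42 ± 0.17 (edgeR adjusted p = 5.9e-14). The cKO mean of H3K27ac was 5.37-fold below that of WT, and the 2 marks were not tested against each other. How much of the level left in cKO is background is not known, since input libraries were not used. The 2 Polycomb marks gave no call: H3K27me3 was 72.4 and 83.9 CPM in WT and 77.1 and 102 in cKO (0.19 ± 0.35, edgeR adjusted p = 0.738). H2AK119ub1 was 73.1 and 107.9 in WT and 104 and 115 in cKO (0.28 ± 0.24, adjusted p = 0.38), and in both marks the libraries of the genotypes overlapped. The window's centre lies 571 bp inside the RefSeq 5′ end of Runx2, 401 bp inside the start whose sequence is shown above, and within the span of the neighbouring gene Supt3, so a mark that belongs to Supt3 there cannot be told apart from one of Runx2.

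The loss at Runx2 covered the whole marked domain. In WT the H3K4me3 profile, smoothed over 5 bins, peaked 175 bp inside the window's centre. Its bins above 25% of that peak, adjoining or not, added up to 5150 bp, the most of the members. In cKO no bin reached that height. Within the core, 400 bp to each side of the centre, H3K4me3 was 168 and 149 CPM in WT and 4.12 and 7.20 in cKO (-4.74 ± 0.21). In the 4 kb inside the gene, from 1 to 5 kb past the centre, it went from 361 and 312 CPM to 8.55 and 13.8 (-4.87 ± 0.18). The 4 kb upstream, from 5 to 1 kb before the centre, held less in WT, 79.3 and 68.2 CPM, and 10.1 and 12.4 in cKO (-2.69 ± 0.24). All 3 parts fell, and H3K27ac fell in all 3 as well, by -1.57 ± 0.26 upstream, -2.61 ± 0.30 in the core and -2.33 ± 0.23 inside on the log2 scale. The fall of H3K4me3 was larger inside than upstream (difference -2.21 ± 0.29, edgeR adjusted p = 0.0001), while that of H3K27ac was not called different (-0.69 ± 0.33, adjusted p = 0.147), though it was without cKO replicate 2 (-1.33 ± 0.35, adjusted p = 0.00944). This test of 1 part against another was added after the data were seen. In cKO the H3K4me3 libraries of the inside and upstream parts overlapped at a low level. The larger log2 fall inside thus goes with the higher WT level there.

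Msx2 (ENSMUSG00000021469, chromosome 13, minus strand, 53471075 to 53475074) kept its H3K4me3 peak while the part of the domain inside the gene fell. Over the promoter, H3K4me3 was 375 and 298 CPM in WT and 199 and 212 in cKO, a fall of -0.71 ± 0.09 on the log2 scale (edgeR adjusted p = 2.6e-13). Split by part, the core held 58.8 and 50.3 CPM in WT and 61.3 and 58.1 in cKO (0.13 ± 0.17, edgeR adjusted p = 0.537), with overlapping libraries. The upstream part had 138 and 120 CPM in WT against 124 and 134 in cKO (0.00 ± 0.13). The inside part fell from 279 and 207 CPM to 34.8 and 43.3 (-2.63 ± 0.16, edgeR adjusted p = 4.0e-18). The difference between inside and upstream was -2.63 ± 0.25 (edgeR adjusted p = 7.4e-06), where the median over all genes was -0.10. The smoothed profile peaked at 12.01 CPM per bin in WT and 11.3 in cKO, and a separate upstream summit, 2825 bp before the centre in WT and 2925 bp in cKO, reached 6.88 and 7.33. Bins above 25% of the WT peak, adjoining or not, added up to 3700 bp in WT and 1900 bp in cKO, and both summits lie among them. Within 1 kb of the centre alone the promoter change was -0.19 and lost its call (adjusted p = 0.118). The RefSeq start of Msx2 lies 294 bp inside the window's centre. The noncoding gene Gm33763 overlaps the window, so a mark that belongs to it there cannot be told apart from one of Msx2.

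H3K27ac at Msx2 fell over the promoter from 238 and 192 CPM to 75.4 and 112 (-1.20 ± 0.19, edgeR adjusted p = 2.9e-06), and it fell in all 3 parts: -0.63 ± 0.21 upstream, -1.10 ± 0.36 in the core and -2.07 ± 0.23 inside. As in H3K4me3, the inside part fell further than the upstream part (difference -1.44 ± 0.32, edgeR adjusted p = 0.00023). The upstream call was lost without WT replicate 1 (-0.43), without WT replicate 2 (-0.75) or without cKO replicate 2 (-0.52), and the core call without WT replicate 1 (-0.95) or without cKO replicate 1 (-0.94). H3K27me3 rose over the promoter from a mean of 120.4 ± 17.5 CPM (SD, n = 2) to 209 ± 33.4, the cKO libraries at 233 and 186 both above those of WT (0.80 ± 0.28, edgeR adjusted p = 0.0179), which was not called without WT replicate 2 (0.66, adjusted p = 0.0692) or without cKO replicate 1 (0.66, adjusted p = 0.197). Upstream it rose from 113 and 114 CPM to 229 and 226 (1.00 ± 0.26, edgeR adjusted p = 0.00973). In the core it was 10.3 and 18.6 CPM in WT and 44.9 and 41.4 in cKO (1.56 ± 0.54, edgeR adjusted p = 0.0952), higher in both cKO libraries but not called. Inside the gene it was 69.8 and 82.4 CPM in WT against 58.9 and 69.2 in cKO (-0.25 ± 0.37, adjusted p = 0.678). Parts were not tested against each other in the Polycomb marks. Thus the upstream flank of the Msx2 window had gained H3K27me3, with its H3K27ac called lower and its H3K4me3 level not called different. H2AK119ub1 was 129 and 122 CPM in WT and 152 and 153 in cKO (0.28 ± 0.21, adjusted p = 0.313), higher in both cKO libraries but not called.

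**Figure D3:**
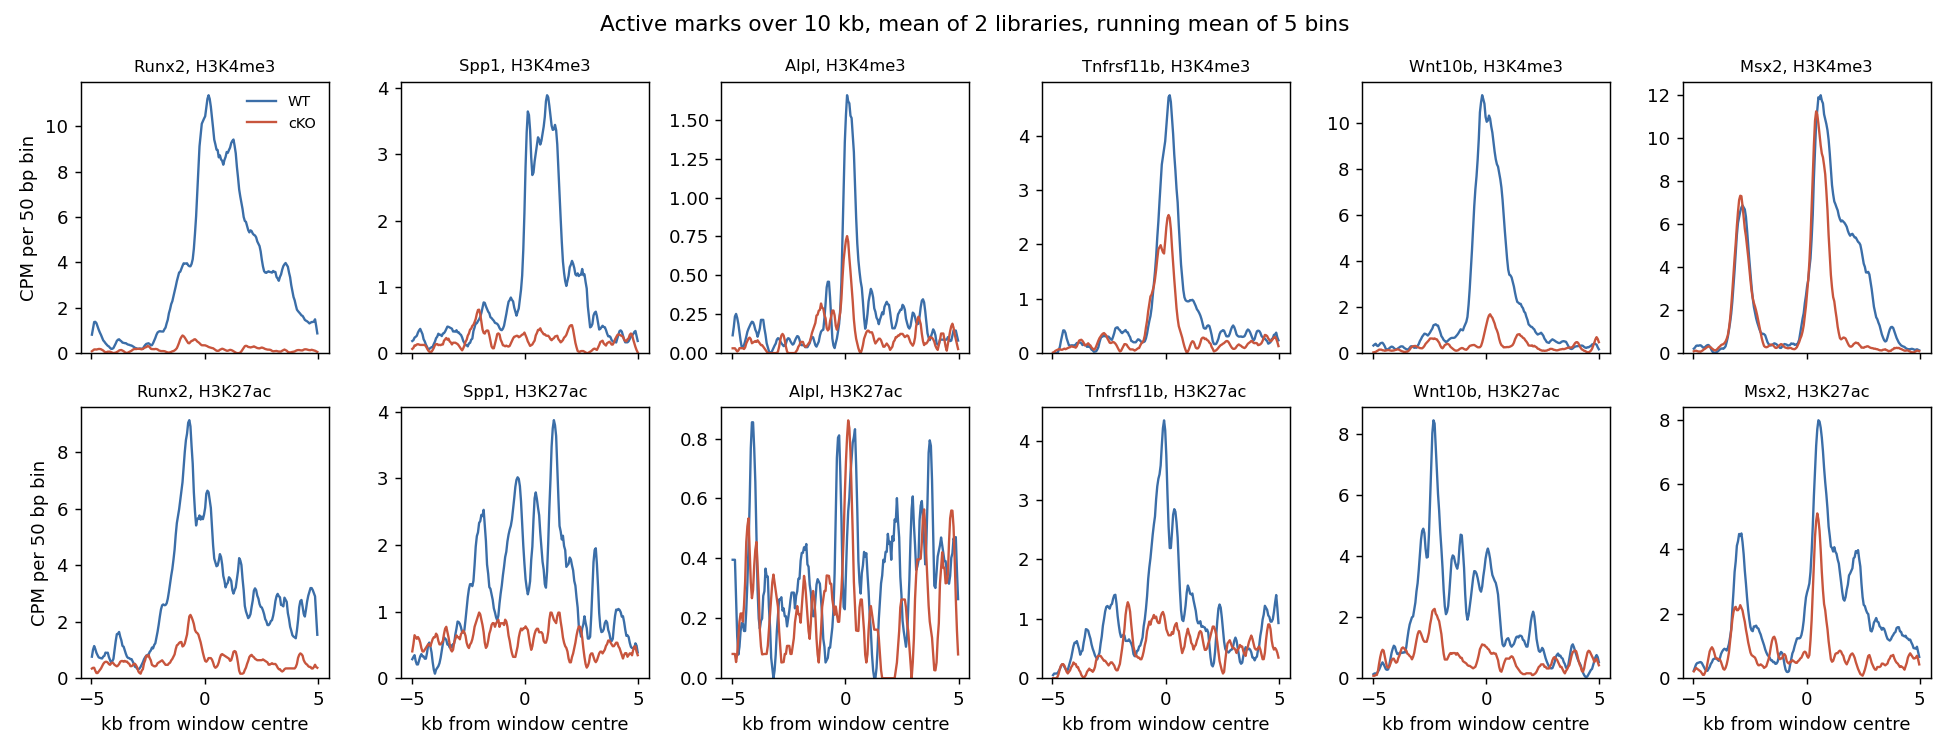
H3K4me3 (upper row) and H3K27ac (lower row) over 10 kb at each member, in CPM per 50 bp bin against the distance from the window's centre in transcript direction. Lines are means of 2 libraries smoothed over 5 bins, WT blue and cKO red, and each panel has its own vertical scale. In cKO the H3K4me3 of Runx2 is flat while its H3K27ac keeps a low summit of 2.24 CPM per bin at -625 bp, and the H3K4me3 of Msx2 keeps summits at 425 and -2925 bp while the shoulder past 1 kb is gone.

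Wnt10b (ENSMUSG00000022996, chromosome 15, minus strand, 98776144 to 98780143) lost its active marks and gained H3K27me3. H3K4me3 was 325 and 357 CPM in WT and 40.2 and 40.6 in cKO, a log2 change of -3.08 ± 0.12 (edgeR adjusted p = 2.9e-128). H3K27ac went from 202 and 210 CPM to 43.1 and 52.7 (-2.11 ± 0.20, edgeR adjusted p = 7.7e-11). H3K27me3 went from 82.7 and 99.5 to 228 and 265 (1.43 ± 0.28, edgeR adjusted p = 6.0e-06), which took the promoter from percentile 56.9 in WT to 94.2 in cKO, the highest of the members. In all 3 marks the genotypes lay clearly apart. H2AK119ub1 was high in both genotypes, 246 and 227 CPM in WT, at the 99th percentile, and 197 and 174 in cKO (-0.35 ± 0.20, adjusted p = 0.16); both cKO libraries lay below both WT libraries without a call. The 20 nearest genes of the data had a median change of -0.41 in H3K27me3, and relative to it the H2AK119ub1 change was 0.06.

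The H3K27me3 gain at Wnt10b was called in the core and inside the gene, and its cKO profile peaked 675 bp past the centre. In the core it was 13.8 and 14.0 CPM in WT and 65.5 and 56.9 in cKO (2.13 ± 0.47, edgeR adjusted p = 0.0104; without cKO replicate 1 it was 2.05, adjusted p = 0.0671). Inside the gene it rose from 84.5 and 115 to 143 and 204 (0.80 ± 0.28, edgeR adjusted p = 0.0376), a call lost without WT replicate 1 (0.59) or without cKO replicate 2 (0.53). Upstream it was 65.5 and 62.2 in WT and 80.1 and 77.3 in cKO (0.30 ± 0.35, not called). H3K4me3 fell in all 3 parts: from 153 and 170 CPM to 15.8 and 15.9 in the core (-3.35 ± 0.15), from 68.5 and 76.4 to 23.3 and 26.2 inside (-1.55 ± 0.22) and from 40.8 and 46.8 to 15.2 and 23.5 upstream (-1.16 ± 0.25). H3K27ac was arranged otherwise: its WT summit lay 2325 bp upstream of the centre at 8.44 CPM per bin and fell to 2.27 at 2275 bp in cKO, and the upstream part as a whole fell from 228 and 217 CPM to 79.6 and 72.7 (-1.55 ± 0.19). At this member the share of the window's H3K27ac counts that lay upstream was 57.0% and 54.5% in WT against 58.4% and 51.7% in cKO. The share inside the gene went from 15.4% and 17.7% to 26.0% and 26.7%, and that of the 4 kb promoter from 50.5% and 52.8% to 31.6% and 37.5%, with no overlap between genotypes. The change inside against that upstream was not called different (0.69 ± 0.33, edgeR adjusted p = 0.144).

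Spp1 (ENSMUSG00000029304, chromosome 5, plus strand, 104433118 to 104437117) also lost active marks and gained H3K27me3. H3K4me3 was 144 and 137 CPM in WT and 16.8 and 20.97 in cKO (-2.88 ± 0.19, edgeR adjusted p = 2.3e-50). H3K27ac was 200 and 134 in WT and 56.8 and 52.1 in cKO (-1.61 ± 0.21, edgeR adjusted p = 8.6e-08), with the WT libraries further from each other than those of cKO. H3K27me3 rose from 46.5 and 57.5 CPM, percentile 18.3 and the lowest of the members, to 98.3 and 139 (1.18 ± 0.35, edgeR adjusted p = 0.00434). That call was lost without cKO replicate 2 (0.93, adjusted p = 0.166) and within 1 kb of the centre (1.01, adjusted p = 0.135). H2AK119ub1 was 71.2 and 71.4 in WT and 112 and 102 in cKO (0.58 ± 0.26, edgeR adjusted p = 0.0669), higher in both cKO libraries but not called. The H3K4me3 of WT peaked 975 bp inside, and its bins above 25% of that peak, adjoining or not, added up to 2900 bp. No bin in cKO reached that height. It fell from 87.6 and 75.6 CPM to 13.9 and 13.6 inside (-2.57 ± 0.23), whereas upstream it was 30.4 and 22.8 in WT and 14.2 and 18.5 in cKO (-0.69 ± 0.28, adjusted p = 0.0519). The inside part fell further than the upstream part by -1.88 ± 0.35 (edgeR adjusted p = 0.00155). Since both parts lay at similar low levels in cKO, this difference goes with the higher WT level inside. No single part gave a call in H3K27me3.

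Tnfrsf11b (ENSMUSG00000063727, chromosome 15, minus strand, 54276485 to 54280484) lost less of the active marks than Runx2, Wnt10b and Spp1, and kept a peak in H3K4me3. H3K4me3 was 101.0 and 120.8 CPM in WT and 53.2 and 54.0 in cKO (-1.05 ± 0.17, edgeR adjusted p = 2.1e-09). H3K27ac was 126 and 127 in WT and 59.9 and 57.5 in cKO (-1.11 ± 0.21, edgeR adjusted p = 2.6e-05). The smoothed H3K4me3 peak went from 4.75 to 2.54 CPM per bin within 50 bp of the same place. Bins above 25% of the WT peak, adjoining or not, went from 1300 to 950 bp in all. H3K4me3 changed by -0.87 ± 0.19 in the core and -1.25 ± 0.28 inside. The smoothed H3K27ac profile did not keep its peak: it had 4.34 CPM per bin at -75 bp in WT and at most 1.28, at -1675 bp, in cKO. H3K27ac fell in the core from 48.9 and 55.2 CPM to 13.7 and 14.3 (-1.89 ± 0.37, edgeR adjusted p = 8.3e-06), and its upstream fall (-0.99 ± 0.32) lost its call without WT replicate 1 (-0.67), without cKO replicate 1 (-0.77) or relative to the 20 nearest genes in H2AK119ub1 (-0.65). H3K27me3 was 107.7 and 101.0 CPM in WT and 106 and 147 in cKO (0.27 ± 0.29, adjusted p = 0.529), with overlapping libraries. H2AK119ub1 was 139 and 127 in WT and 78.9 and 106 in cKO (-0.52 ± 0.22, edgeR adjusted p = 0.0549), just short of the threshold, and over the whole 10 kb window it fell from 288 and 299 CPM to 190 and 222 (-0.51 ± 0.15, edgeR adjusted p = 0.00768). The window call was lost without cKO replicate 1 (-0.40) and relative to the 20 nearest genes in H3K27me3 (-0.08), whose median was -0.43.

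Alpl (ENSMUSG00000028766, chromosome 4, minus strand, 137794385 to 137798384) stood apart in having little of the active marks in WT. H3K4me3 was 33.2 and 31.8 CPM in WT and 10.4 and 20.1 in cKO (-1.07 ± 0.32, edgeR adjusted p = 0.00168), not called without cKO replicate 1 (-0.69, adjusted p = 0.116) or relative to the 20 nearest genes (-0.65, adjusted p = 0.073), whose median change in H2AK119ub1 was -0.42. H3K27ac was 31.6 and 25.2 in WT, percentile 8.31, and 21.3 and 17.8 in cKO (-0.53 ± 0.37, adjusted p = 0.216). Both cKO libraries lay below both WT libraries in both marks, at low counts. H3K27me3 in WT was the highest of the members, 140 and 201.2 CPM at percentile 83.2, and was 173 and 118.6 in cKO (-0.23 ± 0.27, adjusted p = 0.586), with overlapping libraries. H2AK119ub1 fell from 146 and 135 CPM to 62.7 and 91.4 (-0.86 ± 0.23, edgeR adjusted p = 0.00126). In the part inside the gene it fell from 86.1 and 102 CPM to 48.2 and 38.9 (-1.11 ± 0.28, edgeR adjusted p = 0.00658), a call lost without cKO replicate 2 (-0.96) and relative to the 20 nearest genes (-0.77). The promoter call was lost without cKO replicate 1 (-0.62), within 1 kb (-0.68) and relative to the 20 nearest genes in H3K27me3 (-0.52, adjusted p = 0.106), whose median was -0.34. A second RefSeq start of Alpl lies 29909 bp away, outside the window, and was not analysed here.

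**Figure D4:**
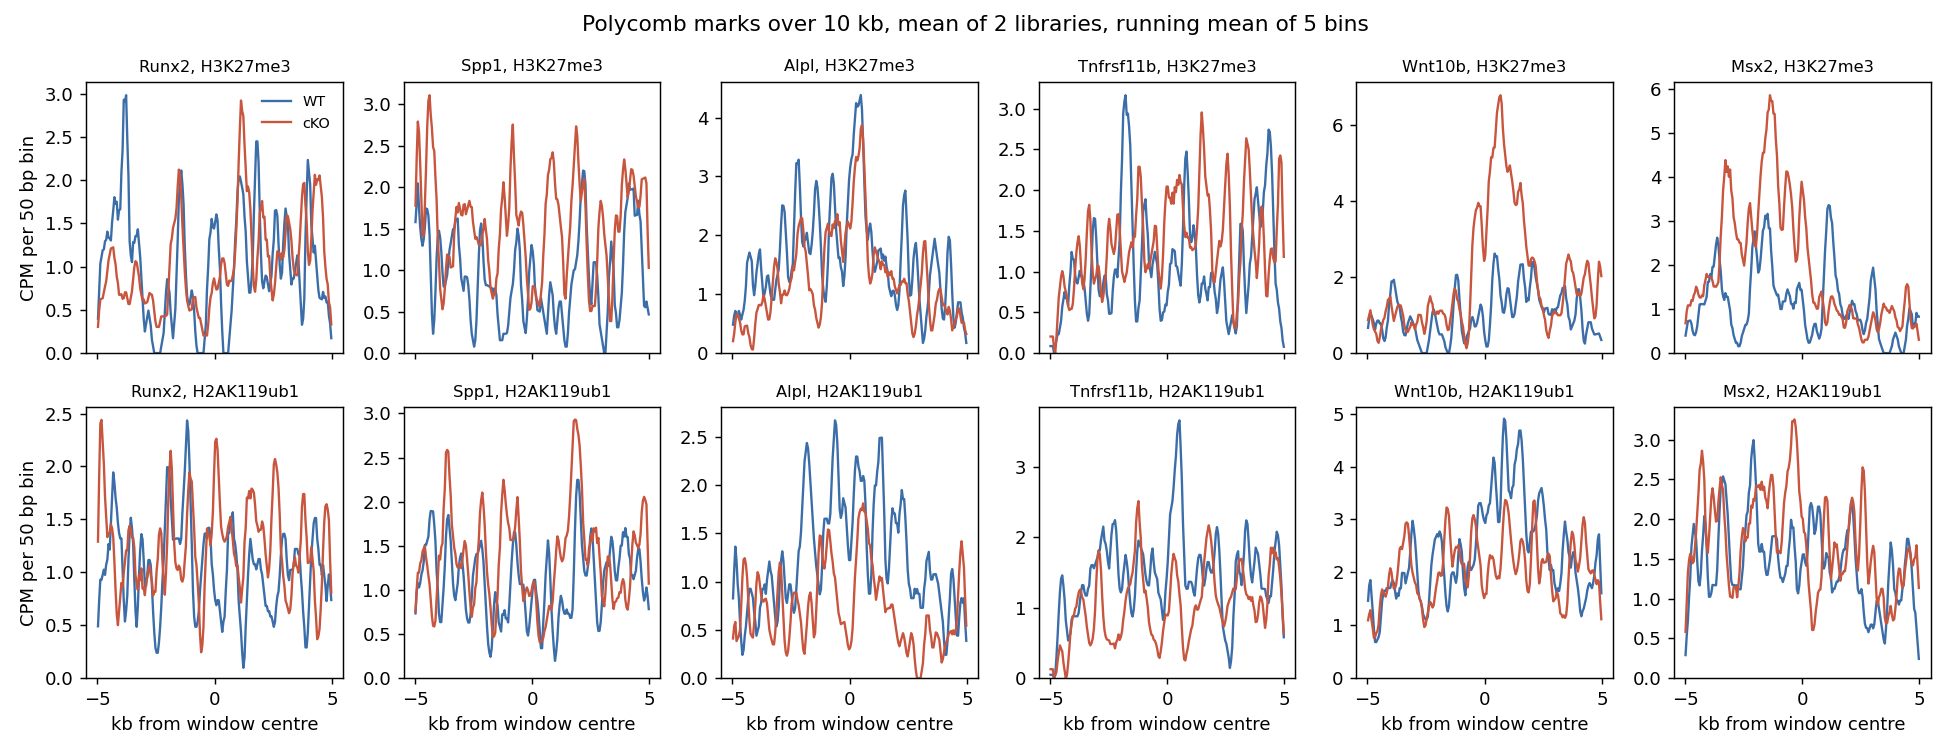
H3K27me3 (upper row) and H2AK119ub1 (lower row) over 10 kb at each member, plotted as for the active marks. H3K27me3 in cKO (red) stands above WT (blue) around the start of Wnt10b, where it peaks at 6.79 CPM per bin, and upstream of Msx2, where it peaks at 5.86. H2AK119ub1 in cKO peaks at 1.81 to 3.37 CPM per bin over the members.

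By part of the window, H3K4me3 fell inside the gene at all 6 members, where 39.6% of all genes fell, and in the core at 5 of 6, all but Msx2, where 14.3% fell. The Alpl calls behind these counts were lost relative to neighbouring genes (-0.68 inside and -0.77 in the core) and without cKO replicate 1 (-0.74 and -0.93), the inside call also without WT replicate 1 (-1.05) and the core call also without WT replicate 2 (-1.22). Upstream H3K4me3 fell at Runx2 and Wnt10b, against 24.2% of all genes. Spp1 joined them with library totals (-0.79) or without WT replicate 2 (-0.91), and Tnfrsf11b without cKO replicate 2 (-1.29). The background differed between parts, with a median log2 change over all genes of 0.26 in the core, -0.44 inside and -0.39 upstream. The inside part fell further than the upstream part at Runx2, Spp1 and Msx2, a difference called in this direction for 12.9% of all genes in H3K4me3. In H3K27ac that difference was called at Msx2, against 8.78% of all genes. At Runx2 and Spp1 the H3K4me3 of both parts lay at similar low levels in cKO. At Msx2 it did not, with 124 and 134 CPM upstream and 34.8 and 43.3 inside. H3K27ac itself fell in the core at 5 members (16% of all genes), upstream at Runx2, Tnfrsf11b, Wnt10b and Msx2 (16.5%) and inside at Runx2, Spp1, Wnt10b and Msx2 (26.9%). The core call at Spp1 was lost without WT replicate 1 (-1.34), and the inside call at Wnt10b without WT replicate 2 (-0.72) and relative to neighbouring genes (-0.54). H3K27me3 rose in the core at Wnt10b (1.99% of all genes), inside at Wnt10b (7.17%) and upstream at Msx2 (8.35%). H2AK119ub1 fell inside at Alpl (14.4%). Over whole 10 kb windows H3K4me3 fell at 6 members (37.3% of all windows), H3K27ac at 6 (33.6%) and H2AK119ub1 at Alpl and Tnfrsf11b (25.2%), and H3K27me3 rose at the same 3 members as over the promoter (17.7%). The window call of H3K27ac at Alpl (-0.61 ± 0.24, edgeR adjusted p = 0.033) was lost when any 1 of the 4 libraries was left out (-0.66 to -0.53) and relative to neighbouring genes (-0.19), and that of H3K4me3 at Alpl without cKO replicate 1 (-0.72, adjusted p = 0.0545). The H3K27me3 window call at Spp1 was lost without cKO replicate 1 (0.68, adjusted p = 0.0573). Relative to neighbouring genes the H2AK119ub1 window call at Alpl was lost (-0.44, adjusted p = 0.0733), while H2AK119ub1 at Runx2 (0.56, adjusted p = 0.0169) and H3K27me3 at Tnfrsf11b (0.68, adjusted p = 0.00666) were called higher.

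**Figure D5:**
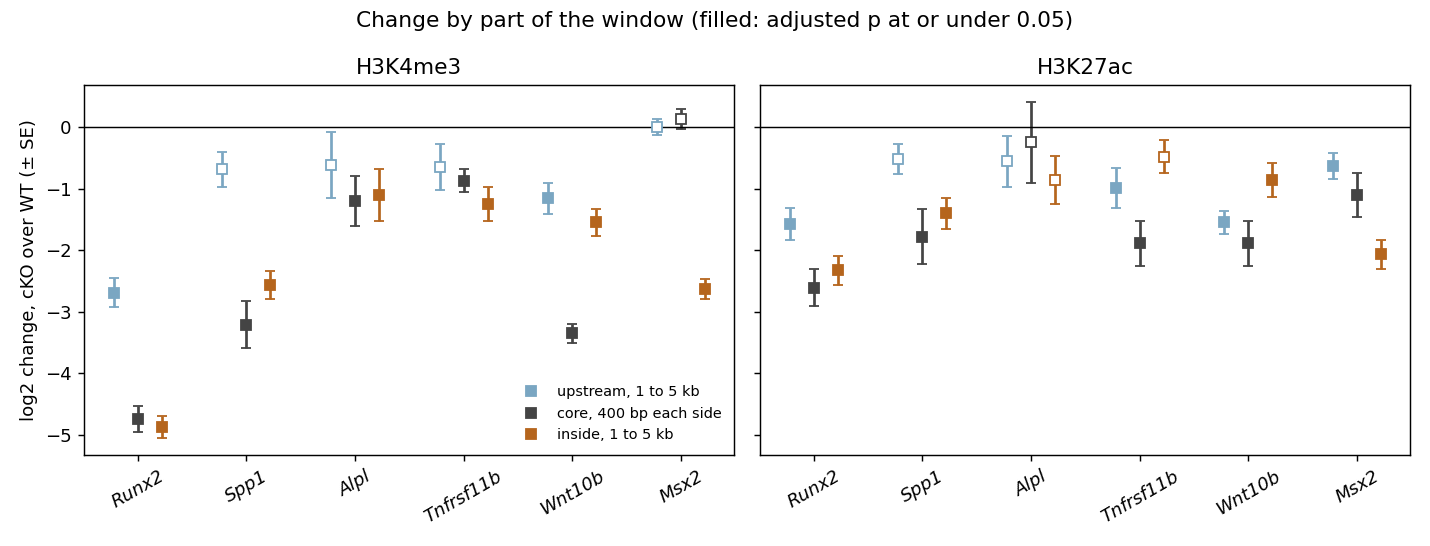
log2 change of H3K4me3 (left) and H3K27ac (right) in 3 parts of the window, with standard errors, at each member: upstream from 5 to 1 kb before the centre, core within 400 bp, and inside from 1 to 5 kb past it. Filled squares have a BH-adjusted p at or under 0.05. At Msx2 the upstream and core squares of H3K4me3 lie at 0.00 and 0.13 while the inside square lies at -2.63.

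The wider list of osteoblast lineage and matrix genes held 42 genes, of which 17 were measured. H3K4me3 fell at 13 of them and rose at 2, H3K27ac fell at 9 and rose at 1, and H3K27me3 rose at 6 and fell at 2. H2AK119ub1 rose at 1 and fell at 4. Among all promoters 40.5% rose in H3K4me3 and 30.9% in H3K27ac. The shares were 12.4% rising and 15.6% falling in H3K27me3, and 16.7% rising and 16.4% falling in H2AK119ub1. Without the members, H3K27me3 rose at 3 and fell at 2 of 11 genes, and H2AK119ub1 rose at 1 and fell at 3. The median log2 change of the 17 was -0.89 in H3K4me3 and -0.64 in H3K27ac. These medians include the 6 members, whose own were -1.98 and -1.41. Genes marked DOWN had medians of -0.38 and -0.50. Of the 11 that are not members, 7 fell in H3K4me3 and 4 in H3K27ac, where 31.8% and 29.1% of all promoters fell, and 58.2% and 53.1% of those marked DOWN. Col1a2, a chain of type I collagen, fell as steeply as the leading members, from 443 and 381 CPM of H3K4me3 to 40.7 and 32.3 (-3.51 ± 0.12) and from 567 and 566 CPM of H3K27ac to 50.5 and 67.3 (-3.27 ± 0.17). Postn, which encodes the matrix protein periostin, fell from 96.8 and 68.8 CPM of H3K4me3 to 12.2 and 15.01 (-2.59 ± 0.24). Serpinf1, Smpd3, Twist2, Col1a1 and Enpp1 fell in H3K4me3 by smaller amounts, from -1.08 to -0.24.

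Not all of the list moved this way. Col1a1, the other type I collagen chain, changed by -0.37 ± 0.09 in H3K4me3 while H3K27me3 rose from 44.0 and 72.3 CPM to 187 and 165 (1.59 ± 0.30) and H2AK119ub1 from 85.6 and 122 to 227 and 225 (1.12 ± 0.21, edgeR adjusted p = 2.6e-06), the single H2AK119ub1 rise on the list. Cdh11, osteoblast cadherin, went in the opposite direction in 3 marks: H3K4me3 rose from 114 and 136 CPM to 506 and 504 (2.01 ± 0.09), H3K27ac rose from 76.1 and 75.2 to 203 and 225, and H3K27me3 fell from 504 and 335 to 113 and 123 (-1.83 ± 0.27). Phospho1, a phosphatase of matrix vesicles, rose in H3K4me3 (1.20 ± 0.12) and in H3K27me3 (1.04 ± 0.26). H3K27me3 fell at Bmp4 (-1.15 ± 0.26), whose central 4 kb overlaps that of another gene of the data. H2AK119ub1 fell at Tnfsf11, the RANKL gene that osteoprotegerin opposes (-0.73 ± 0.20, edgeR adjusted p = 0.00266). It also fell at Bmp4 (-0.73 ± 0.20, edgeR adjusted p = 0.00229) and at Cdh11 (-0.50 ± 0.20, edgeR adjusted p = 0.0417). The list was drawn up with earlier results of these data known, so its direction is not independent evidence.

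Of 27 listed genes that act with RUNX2 or on it, 6 were measured. H3K4me3 rose at 4 of them, where 40.5% of all promoters rose: Tle1, a corepressor (1.29 ± 0.08), Hey2 (0.40 ± 0.11) and Hes1 (0.90 ± 0.08), effectors of Notch signalling, and Hivep3, which works in RUNX2 turnover (1.63 ± 0.20). Ets1 (-0.60) and Cebpb (-0.15) were not called. The central 4 kb of Tle1 overlaps that of another gene of the data. In H3K27ac the same 4 rose and Ets1 fell. H2AK119ub1 rose at Tle1 and Hivep3 and fell at Cebpb, and H3K27me3 rose at Ets1 and fell at Cebpb. On the list of Wnt and BMP signalling in bone, 15 of 43 were measured, and 11 rose and 3 fell in H3K4me3, 6 rose and 2 fell in H3K27ac, and 7 fell and none rose in H3K27me3, while H2AK119ub1 rose at 2 and fell at 4. Over all promoters 40.5% rose and 31.8% fell in H3K4me3, and 30.9% rose and 29.1% fell in H3K27ac. The shares were 12.4% rising and 15.6% falling in H3K27me3, and 16.7% rising and 16.4% falling in H2AK119ub1. Axin2, a target of Wnt signalling, rose from 88.9 and 74.2 CPM of H3K4me3 to 378 and 421 (2.30 ± 0.10), opposite to the ligand gene Wnt10b. Dkk3, a member of the Dickkopf family of secreted proteins, rose from 88.8 and 91.4 to 450 and 386 (2.21 ± 0.10). Nog, the BMP antagonist noggin, rose from 33.5 and 29.9 to 220 and 189 in H3K4me3 (2.69 ± 0.15) while its H3K27me3 fell from 532 and 509 to 171 and 176.

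Markers of other cells were checked beside the members. Of 15 stromal identity genes 9 were measured, and 5 of the 9 stood above the median of all promoters (165 CPM) in H3K4me3 of WT. Vim, Cxcl12 and Pdgfrb had the most, 624 and 614, 612 and 570, and 569 and 516 CPM. Vcam1 (mean 147), Mcam (62.8), Ly6a (23.0) and Thy1 (17.3) stood below it. Of these 9 genes, 7 fell and 1 rose in H3K4me3, 6 fell in H3K27ac and 2 rose in H3K27me3, and H2AK119ub1 rose at 2 and fell at 1. Among all promoters 31.8% fell and 40.5% rose in H3K4me3, and 29.1% fell and 30.9% rose in H3K27ac. The shares were 12.4% rising and 15.6% falling in H3K27me3, and 16.7% rising and 16.4% falling in H2AK119ub1. They are the background for each marker list here. Of 18 markers of marrow blood cells only Cd68 and Lyz2 were measured, and their summed H3K4me3 was 38.2 to 46.1 CPM in WT and 36.6 to 38.1 in cKO, with no call in any of the 4 marks. Cd68 carried more H3K27ac, with a mean of 125 CPM for WT libraries and 138 for cKO libraries. Its WT mean thus lay just above the H3K27ac level of the middle promoter, 123 CPM. Lyz2 stayed low in this mark, at means of 13.2 and 18.9. Of 10 osteoclast markers Ctsk and Nfatc1 were measured. Both fell in H3K4me3 and in H3K27ac, Nfatc1 rose in H3K27me3, and their summed H3K4me3 was 660 to 690 CPM in WT and 388 to 446 in cKO. Of 10 endothelial markers Eng was measured and fell in H3K4me3 from 179 and 170 CPM to 15.7 and 9.46, and it also fell in H3K27ac and H2AK119ub1. Eng is also on the stromal list. Of 10 adipocyte markers 5 were measured. In each of H3K4me3 and H3K27ac 4 fell (Pparg, Fabp4, Plin4 and Lpl) and Cebpa rose, H3K27me3 rose at Pparg and H2AK119ub1 fell at Lpl, and the summed H3K4me3 was 1299 to 1329 CPM in WT and 503 to 510 in cKO. Of 10 chondrocyte markers 3 were measured: H3K4me3 rose at Sox9 and fell at Col10a1, H3K27ac rose at Sox9 and Comp, H3K27me3 fell at Comp, and H2AK119ub1 rose at Sox9 and fell at Comp. Summed, their H3K4me3 was 502 to 520 CPM in WT and 858 to 862 in cKO. The part of these cell types in the changes at the members was not tested.

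Likeness to each member was measured as the Euclidean distance over the 8 group means of log2(promoter CPM + 1), 4 marks in 2 genotypes. The 3 genes nearest to Runx2 were Col6a3 (1.01), Emilin1 (1.02) and Col1a2 (1.13). Col6a3, a collagen VI chain, held 428 and 389 CPM of H3K4me3 in WT and 18.5 and 21.6 in cKO. Spp1 was nearest to Tdrd7 (0.71), Mgst2 (0.95) and Lgals9 (1.01), and Tnfrsf11b to Procr (0.72), Mgp (0.77) and Pctp (0.80). Wnt10b was nearest to Adra1d (1.22), Pparg (1.31) and Abcg1 (1.35), and Msx2 to Lpin2 (0.56), Zfp365 (0.57) and Plekha8 (0.64). Alpl was nearest to Dync1i1 (1.08), Pcdhga4 (1.17) and Tenm3 (1.18), which carry the mark UP, whereas the neighbours of the other members carry DOWN. Between members the distances ran from 2.06 between Spp1 and Tnfrsf11b to 6.26 between Alpl and Msx2. The nearest genes were picked from 3330 named windows, far more than the 6 members. Their smaller distances therefore do not show whether the members are alike.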

How the data were processed

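The authors deposited unnormalized whole-number counts of reads for 16 libraries, 1 column each per the file headers, over 200 bins of 50 bp at each of 3925 gene starts. Per the submitters' processing notes, the tools were bedtools 2.30.0, SAMtools 1.9, Picard 2.25.5, Bowtie2 2.4.5 and cutadapt 1.18, on GRCm38, with no settings given. Among isolated runs of ones shorter than 6 bins, 98.16% spanned 3 bins, which means that a summed count includes each read about 3 times. The windows are only part of each library, and a shift shared by every window cannot be seen. Input libraries were not used here.

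Windows were named from RefSeq positions (GRCm38.p6, 5′ end within 500 bp of the centre on the same strand), which named 3330 (84.8%), against 116 (2.96%) after a shift of 20 kb. Runx2 was taken by its identifier, with its centre inside the RefSeq span of Runx2. Counts of the central 4 kb, the 10 kb window and its parts were tested with edgeR 4.0.16 (R 4.3.3) quasi-likelihood tests with robust dispersion on the 4 libraries of a mark, genotype as the term. Library sizes were autosomal bin sums with TMM factors, genes were filtered by filterByExpr (minimum count 10), and BH adjustment over all genes used a threshold of 0.05. The inside part was compared with the upstream part in 1 model with a term per library, added after the data were seen. Scripts were tested on simulated counts. The sequences come from RefSeq promoters, of which 5 members matched. Profiles were smoothed over 5 bins, and breadth was the summed length of all bins above 25% of the WT peak, adjoining or not.

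The genes named are the 6 members, the measured osteoblast genes, up to 3 genes of lowest p of the other lists and the 3 nearest genes. Further genes named beside a count, and those singled out for their direction, were chosen after their values were seen. The members and lists were chosen with earlier results of these data known. Alternatives were library totals, TMM factors from promoters, DESeq2 1.42.0, no filter, promoters of 1 kb to each side, each library left out, the replicate number as a block, 1 bin in 3, a regional offset by the 20 nearest genes (their H3K27me3 change for H2AK119ub1, their H2AK119ub1 change for the other marks), all 16 libraries in 1 fit, and a pseudocount of 0.1 for the nearest genes. For parts of the window the alternatives were added later.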

Additional observations from a re-analysis of the deposited data

How the results depend on the processing

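The calls on H3K4me3 and H3K27ac at Runx2, Spp1, Wnt10b and Tnfrsf11b promoters, and on H3K27me3 at Wnt10b, kept their side of the threshold under all alternatives run. Of 312 member values over promoters recomputed under an alternative, 294 kept direction and side of the threshold, 10 lost a call, 3 gained one and 5 changed sign. The cause of the changes was not tested. Relative to neighbouring genes, H2AK119ub1 at Alpl was -0.52 and H3K4me3 at Alpl -0.65, both without a call, H2AK119ub1 at Wnt10b turned to 0.06 over the promoter and 0.20 over the window, H3K27me3 at Alpl to 0.19 and 0.03, H3K4me3 upstream of Msx2 to -0.08 and H3K27ac in the Alpl core to 0.17. Upstream H3K27ac at Tnfrsf11b lost its call (-0.65), and the calls that parts and windows lost or gained are given beside their counts. H3K4me3 upstream of Msx2 was -0.10 with library totals. Within 1 kb, H2AK119ub1 at Alpl (-0.68), H3K27me3 at Spp1 (1.01) and H3K4me3 at Msx2 (-0.19) lost their calls. H2AK119ub1 at Tnfrsf11b gained one within 1 kb (-1.12), with TMM factors from promoters (-0.55) and with 1 bin in 3 (-0.53).

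Leaving out 1 library at a time gave a range of -1.16 to -0.62 for H2AK119ub1 at the Alpl promoter, -1.64 to -0.69 for its H3K4me3 and -0.50 to 0.06 for its H3K27me3. H3K27me3 ranged from 0.93 to 1.44 at Spp1, 0.66 to 0.97 at Msx2 and -0.01 to 0.40 at Runx2 (-0.14 to 0.23 over its window). Upstream H3K4me3 ranged from -1.10 to 0.09 at Alpl and -0.12 to 0.09 at Msx2, core H3K4me3 from 0.00 to 0.24 at Msx2 and core H3K27ac from -1.33 to 0.45 at Alpl. The inside against upstream difference in H3K4me3 ranged from -1.32 to 0.01 at Alpl and -1.05 to 0.12 at Tnfrsf11b.

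The counts of all promoters called also moved. In H2AK119ub1, 651 higher and 636 lower became 252 and 205 relative to neighbours and 267 and 340 within 1 kb, and ranged from 4 to 564 and 19 to 571 with 1 library left out, lowest without cKO replicate 1. In H3K27me3, 483 higher became 245 within 1 kb and 778 with all 16 libraries in 1 fit, and ranged from 268 to 447, and 604 lower from 358 to 625. In H3K27ac, 1133 lower ranged from 753 to 1051. Of the 3 genes nearest to Alpl, 2 stayed with a pseudocount of 0.1.

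Same-numbered libraries showed little shared deviation (correlations of deviations over 2 pairs, by mark: H2AK119ub1 0.00514, H3K27me3 -0.0278, H3K4me3 0.115, H3K27ac 0.0647), and the labels name no shared batch, so with 2 pairs per mark the numbers were not taken to pair the samples. With the replicate block no member call changed, and promoters called higher and lower were 642 and 623 for H2AK119ub1, 453 and 568 for H3K27me3, 1592 and 1256 for H3K4me3, then 1224 and 1158 for H3K27ac.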
